A study of Mus musculus with 12 samples.

Results

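The messenger RNAs of 8 genes of nicotinic acetylcholine signalling were followed through the hippocampus of APP/PS1 mice, out of 44760 genes counted at both ages. They were taken by name: the receptor subunit genes Chrna3, Chrna4, Chrna5, Chrna7, Chrnb2 and Chrnb4, the receptor modulator Lynx1 and the receptor chaperone Ric3. All 8 were found in both count tables. In all, 7 of the genes, all but Chrnb4, had enough counts to be tested at either age.

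Nicotinic receptors are pentameric cation channels opened by acetylcholine and by nicotine. In the forebrain most are built either of alpha4 and beta2 subunits, at times with alpha5 as an accessory subunit, or of alpha7 alone, while alpha3 and beta4 pair mainly in autonomic ganglia and the medial habenula. Assembly of alpha7 depends on chaperones such as RIC3, and LYNX1, a membrane-anchored protein of the Ly6 family, binds assembled receptors and damps their response. Long nicotine exposure is known to raise the number of alpha4beta2 binding sites in rodent brain largely without a matching change of subunit mRNA.

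Hippocampi came from male APPswe/PS1dE9 mice on a C57BL/6 background (N9B6), a line that carries transgenes for mutant amyloid precursor protein and presenilin 1 and deposits amyloid with age. Every group carried the transgenes and a pump under the skin for 14 days, and no mice without the transgenes or without a pump were among the samples. The 4 groups were nicotine at 18 months, saline at 18 months, nicotine at 7 months and saline at 7 months, with 3 libraries each. The nicotine was nicotine hydrogen tartrate at a dose labelled 48 mg/kg/h, a unit taken over as labelled. The labels do not say that each library came from its own animal, so p-values measure the spread between libraries, which may be partly technical. RNA came from whole tissue, so fewer cells of a type and less RNA per cell cannot be told apart.

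Libraries held 21260068 to 23715015 counts at 18 months and 25071195 to 29245972 at 7 months. All 13 markers of hippocampal pyramidal and granule cells exceeded 3 counts in every group. The descriptions of the libraries follow one naming scheme at 18 months and another at 7 months, and the 2 series differed in make-up. Counts of transcripts longer than 5000 nt were 34.9% to 35.8% of the total at 18 months. They were 22.0% to 22.9% in 5 libraries at 7 months and 31.3% in 7-month saline library 2. The nuclear RNA Malat1 stood at 5157 to 6309 CPM at 18 months and at 282 to 384 CPM at 7 months. Age and library series cannot be told apart in any comparison of the 2 ages. At 7 months the descriptions of both libraries numbered 1 carry a prefix ending in B and those of the other 4 a prefix ending in C, a possible batch. Both 7-month libraries numbered 3 also held more of the ribosomal RNA gene Rn18s-rs5, at 8313 CPM (nicotine) and 18139 CPM (saline), against 451 to 712 CPM in the other 4. All 18-month libraries held more still, at 21849 to 27362 CPM.

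The promoters of Chrna7 and Chrnb2 are shown because these 2 subunit genes marked the ends of the range of behaviour described below, Chrna7 with the widest range between libraries among the well-counted genes and Chrnb2 with the narrowest. Each stretch holds 250 bases before and 50 after the start of transcription, from RefSeq on GRCm38.p6, written 5′ to 3′ along the gene. The Chrna7 stretch is chr7:63212477-63212776 and the Chrnb2 stretch chr3:89764583-89764882, both on the minus strand. Capitals mark matches on either strand to GGGCGG, the core bound by Sp1, to GCGGGGGCG, a form bound by Egr factors, and to CACGTG, an E-box.
Chrna7: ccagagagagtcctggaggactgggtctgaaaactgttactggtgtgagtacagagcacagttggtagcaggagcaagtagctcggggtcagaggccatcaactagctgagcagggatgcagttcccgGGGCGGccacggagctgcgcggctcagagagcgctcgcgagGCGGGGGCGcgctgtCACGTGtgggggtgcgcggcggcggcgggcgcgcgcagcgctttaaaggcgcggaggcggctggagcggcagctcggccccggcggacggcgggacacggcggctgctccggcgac
Chrnb2: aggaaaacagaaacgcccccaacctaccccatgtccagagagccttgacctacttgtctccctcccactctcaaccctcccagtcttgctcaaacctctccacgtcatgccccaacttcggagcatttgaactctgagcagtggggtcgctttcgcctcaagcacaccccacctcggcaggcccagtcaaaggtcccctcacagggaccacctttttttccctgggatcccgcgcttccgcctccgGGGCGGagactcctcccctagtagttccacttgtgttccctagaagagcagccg
In Chrna7 the Sp1 core began 122 bases before the start site, the Egr form 81 bases before it and the E-box 66 bases before it. The Egr form was found in 2.91% of 32851 mouse promoters of the same length, the E-box in 7.15% and the Sp1 core in 35.7%. Chrnb2 held 1 Sp1 core, beginning 4 bases before the start site, and neither the Egr form nor the E-box. GCGTGGGCG (a second Egr form) and TGACGTCA, a cyclic AMP response element, were searched on both strands too and found in neither gene. The Egr form can overlap the Sp1 core in other promoters and did not in these 2. These are matches of letters and show no binding.

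Levels were compared as CPM, counts scaled to a common library size as is usual, here with TMM factors, and between genes as CPM per kilobase of the longest coding transcript in GENCODE M21. Per kilobase, Lynx1 led at 84.6 ± 12.5 in 18-month nicotine mice, 97.7 ± 12.9 in 18-month saline mice, 131 ± 18.0 in 7-month nicotine mice and 120 ± 5.33 in 7-month saline mice (SD, n = 3 each). Ric3 came next in every group, at 13.3 to 14.3 CPM per kb. Its libraries overlapped with those of Chrna7 in 18-month saline mice, where Ric3 was above Chrna7 in 2 of 3 libraries.

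Among the subunits at 18 months the order per kilobase was Chrna7, Chrnb2, Chrna4, Chrna5, Chrna3 and Chrnb4 in both infusions, and each neighbour in it was separate from the next in all libraries. At 7 months Chrnb2 led and Chrna4 followed it in nicotine mice, with Chrna7 below both at 2.73 ± 0.177 CPM per kb. In 7-month saline mice the place of Chrna7 was not settled, since its libraries overlapped with those of Chrnb2 and of Chrna4. Chrna3 and Chrnb4 were the lowest in all 4 groups, and in 7-month nicotine mice their libraries overlapped.

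The 6 subunit genes together made up 89.9% to 93.3% of the summed per-kilobase level of all 16 nicotinic subunit genes counted. Chrna7 held 40.7% to 42.6% of that sum in 18-month nicotine libraries and 41.5% to 45.9% in 18-month saline libraries. It held 12.7% to 14.4% in 7-month nicotine libraries. In 7-month saline libraries its share was 14.4%, 36.7% and 12.7%, so that library 2 stood near the older mice and the other two with the younger nicotine mice. As parts of 1 sum the shares are not independent. The share of Chrnb2 was 31.9% to 32.5% in 18-month nicotine libraries, against at least 43.4% in 7-month nicotine libraries. With saline it was 30.9% to 33.2% at 18 months, against 42.7%, 33.1% and 45.8% at 7 months. The level of Chrnb2 itself was 64.1 CPM in 18-month nicotine mice and 59.1 CPM in 7-month nicotine mice. The ratio of Chrna4 to Chrnb2, the pair of the main heteromeric receptor, stayed between 0.341 and 0.585 in all 12 libraries on the per-kilobase scale.

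**Figure D1:**
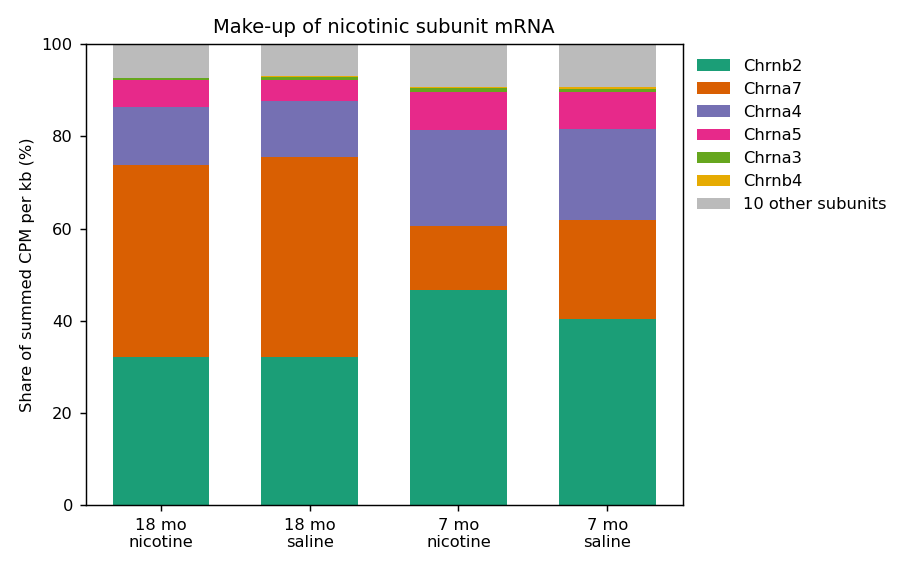
Mean share (%) of the summed CPM per kilobase of 16 nicotinic subunit genes in each group of 3 libraries, stacked by gene, with the 10 subunit genes not studied further in grey. Chrna7 fills a mean of 41.5% and 43.4% at 18 months and 13.8% and 21.3% at 7 months, with nicotine and saline.

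Chrnb4, which with Chrna3 forms the ganglionic and habenular type of receptor, was at the edge of detection. It had 6, 4 and 3 counts in 18-month nicotine libraries and 4, 8 and 3 in 18-month saline libraries, then 16, 5 and 3 in 7-month nicotine libraries and 4, 8 and 12 in 7-month saline libraries. A count of 0 would allow 3 counts, or 0.102 to 0.142 CPM in these libraries, and 3 libraries lay at that limit. Summed over a group, Chrnb4 had 13 counts (95% Poisson interval 6.92 to 22.2) in 18-month nicotine mice and 15 (8.40 to 24.7) in 18-month saline mice. It had 24 counts (15.4 to 35.7) in each 7-month group, and these intervals cover counting error only. Chrnb4 was the one gene of the 8 left untested, so the main test gives no answer on a difference in it. The highest count, 16, belonged to nicotine library 1 at 7 months, a library with 172 CPM summed over 3 pituitary markers and 6082 CPM summed over 6 choroid plexus markers. The other 11 libraries held at most 3.06 CPM of the pituitary markers and at most 1599.9 CPM of those of the choroid plexus, that maximum in 7-month saline library 3, which had 12 counts of Chrnb4. The part of this in the counts of Chrnb4 was not tested. With no filter on low counts its log2 fold change for nicotine was -0.20 (SE 0.58) at 18 months and -0.01 (SE 0.64) at 7 months.

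Chrna3, the ligand-binding partner of Chrnb4, was counted 9 to 29 times per library and Chrna5 75 to 151 times. Of 6 markers of the medial habenula, a site of strong Chrna3 and Chrnb4 expression next to the hippocampus, 5 were in the tables. Their summed level was 14.4 to 22.7 CPM in 18-month nicotine, 14.6 to 22.2 in 18-month saline, 16.3 to 20.5 in 7-month nicotine and 19.1 to 23.2 in 7-month saline libraries. Most of the sum was Lrrc55, with group means of 11.4 to 15.3 CPM. Of the 4 tested between the ages, Tac2 alone was called, as lower at 18 months. Its log2 fold change was -1.21 with nicotine and -1.01 with saline, where 29.8% and 24.6% of all genes were called lower. Pou4f1, a defining habenular transcription factor, did not exceed 3 counts in any library.

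**Figure D2:**
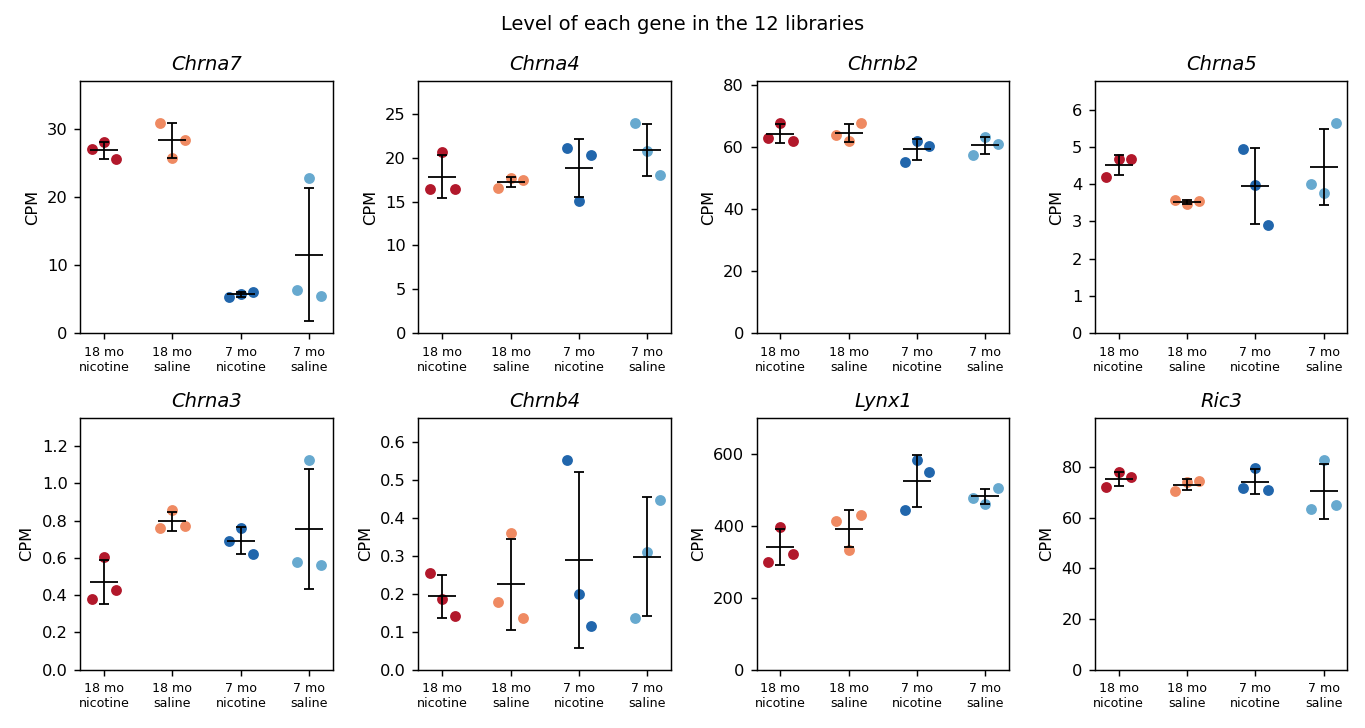
CPM of each of the 8 genes in every library, with the group mean as a horizontal line and the SD as error bars (n = 3), on linear axes that start at 0. Chrna7 shows high values in all 18-month libraries and in 7-month saline library 2, at 22.7 CPM, and low values in the other 5 libraries at 7 months.

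The first question was whether nicotine altered these genes at 18 months. None of the 7 tested genes passed an adjusted p of 0.05 by edgeR's quasi-likelihood test, against 0.044% of all 18196 genes tested (8 genes). Chrna3 and Chrna5 had an unadjusted p under 0.05, a rule that 6.73% of all genes met. The Wald test of DESeq2 called none of the 7 and gave 1 of them an unadjusted p under 0.05. The median log2 fold change over the 7 was -0.02, against 0.00 over all genes. With 3 libraries against 3, an exact two-sided permutation test of a single gene cannot give a p below 0.1.

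Chrna5, the accessory subunit that joins alpha4beta2 receptors, had 4.19, 4.66 and 4.68 CPM in 18-month nicotine libraries, against 3.57, 3.46 and 3.54 CPM in 18-month saline libraries. Each nicotine library was above each saline library. The log2 fold change was 0.34 (SE 0.13, 95% interval 0.05 to 0.63), with an adjusted p of 0.682 by edgeR. It was higher in 3 of 3 nicotine libraries, as were 5.6% of all genes.

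Chrna3 went the opposite way. It had 0.381, 0.606 and 0.425 CPM in 18-month nicotine libraries, from 9, 13 and 9 counts, against 0.760, 0.855 and 0.771 CPM in 18-month saline libraries, from 17, 19 and 17 counts. Each nicotine library was below each saline library, as in 6.12% of all genes. The log2 fold change was -0.77 (SE 0.29, 95% interval -1.42 to -0.11), with an adjusted p of 0.684 by edgeR. Only 1 of the 3 nicotine libraries reached the 0.459 CPM of the filter on low counts, so Chrna3 was tested at this age by virtue of its saline libraries. The sums were 31 counts (95% Poisson interval 21.1 to 44.0) in nicotine mice and 53 (39.7 to 69.3) in saline mice. These counting intervals overlap, which is not a test of the difference.

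Chrna5, Chrna3 and Chrnb4 are neighbours, spread over 67900 nt of mouse chromosome 9 on GRCm38, with Chrna5 on the plus strand and the other two on the minus strand. In RefSeq the ends of Chrna5 and Chrna3 overlap by 1304 nt (chromosome 9, 55010117 to 55011420). The strand setting of the counting is not given in the sources used here, so reads from this stretch cannot be assigned to either gene. The ratio of Chrna5 to Chrna3 counts was 11.0, 7.69 and 11.0 in 18-month nicotine libraries, against 4.71, 4.05 and 4.59 in 18-month saline libraries. Both genes were already apart there in opposite directions, so their ratio had to be apart too and adds no further result. At 7 months the ratio was 7.15, 5.21 and 4.69 in nicotine libraries, against 6.94, 3.34 and 10.1 in saline libraries, and these overlapped.

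The main forebrain subunits had overlapping infusion groups at 18 months. Chrnb2, the structural partner of alpha4, had 62.9, 67.6 and 61.8 CPM with nicotine, against 63.9, 61.9 and 67.6 CPM with saline. Its log2 fold change was -0.02 (95% interval -0.15 to 0.11), which leaves room for a fold of 0.904 to 1.08. Chrna4 had 16.4, 20.7 and 16.4 CPM with nicotine, against 16.6, 17.7 and 17.5 CPM with saline. The nicotine libraries of Chrna4 surrounded the saline ones, and its log2 fold change was 0.04 (95% interval -0.20 to 0.27).

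Chrna7, the subunit of the homomeric receptor, had 27.0, 28.0 and 25.5 CPM with nicotine at 18 months, against 30.8, 25.7 and 28.3 CPM with saline. These ranges overlapped, and the log2 fold change was -0.09 (95% interval -0.26 to 0.08). Lynx1 had 301, 397 and 323 CPM with nicotine, against 414, 334 and 430 CPM with saline, with a log2 fold change of -0.22 (95% interval -0.48 to 0.05). Ric3 had 72.3, 78.0 and 76.0 CPM with nicotine, against 70.6, 74.2 and 74.7 CPM with saline, with a log2 fold change of 0.03 (95% interval -0.09 to 0.15). In none of these 3 genes were the infusions separate.

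At 7 months none of the 7 genes passed by edgeR, against 0.0114% of all 17596 genes tested (2 genes), and none had an unadjusted p under 0.05, a rule that 6.5% of all genes met. The Wald test of DESeq2 called none and gave 1 an unadjusted p under 0.05. In no gene were the infusions separate, while they were in 17.4% of all genes. The median log2 fold change over the 7 was -0.14, against -0.01 over all genes.

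Chrna7 had the largest fold change of the 7 at this age, set by 1 library. It had 5.26, 5.78 and 5.97 CPM in 7-month nicotine libraries, against 6.27, 22.7 and 5.49 CPM in 7-month saline libraries. Saline library 2 stood far above the rest, and without it both groups shared 1 range. The log2 fold change was -1.05 (SE 0.53, adjusted p = 0.656 by edgeR), and -0.05 without saline library 2. Within the 4 libraries of the prefix ending in C it was -1.29 (SE 0.63), and none of the 7 genes was called there either. The prefix ending in B has 1 library per infusion and gives no test.

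The other subunits at 7 months had 95% intervals that included 0. Chrna4 had 21.1, 15.1 and 20.3 CPM with nicotine, against 24.0, 20.8 and 18.0 CPM with saline (log2 fold change -0.17, 95% interval -0.57 to 0.23). Chrnb2 had 55.2, 61.9 and 60.3 CPM with nicotine, against 57.4, 63.0 and 60.8 CPM with saline (log2 fold change -0.05, 95% interval -0.28 to 0.19). Chrna5 had 4.95, 3.97 and 2.91 CPM with nicotine, against 4.00, 3.77 and 5.64 CPM with saline (log2 fold change -0.19, 95% interval -0.79 to 0.40). The order of the libraries differed from gene to gene, and the low nicotine value of Chrna4, in library 2, was not low in Chrnb2 or Chrna5.

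Chrna3 had 0.692, 0.763 and 0.620 CPM with nicotine at 7 months, against 0.576, 1.13 and 0.561 CPM with saline, a log2 fold change of -0.14 (95% interval -0.98 to 0.71). Its highest value, like that of Chrna7, was in saline library 2, without which the log2 fold change was 0.28. Lynx1 had 445, 585 and 549 CPM with nicotine, against 480, 463 and 505 CPM with saline (log2 fold change 0.11, 95% interval -0.18 to 0.40). Ric3 had 71.6, 79.9 and 71.1 CPM with nicotine, against 63.4, 82.9 and 65.1 CPM with saline (log2 fold change 0.06, 95% interval -0.27 to 0.38). Saline library 2 was the highest of the group in Ric3 and the lowest in Lynx1.

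**Figure D3:**
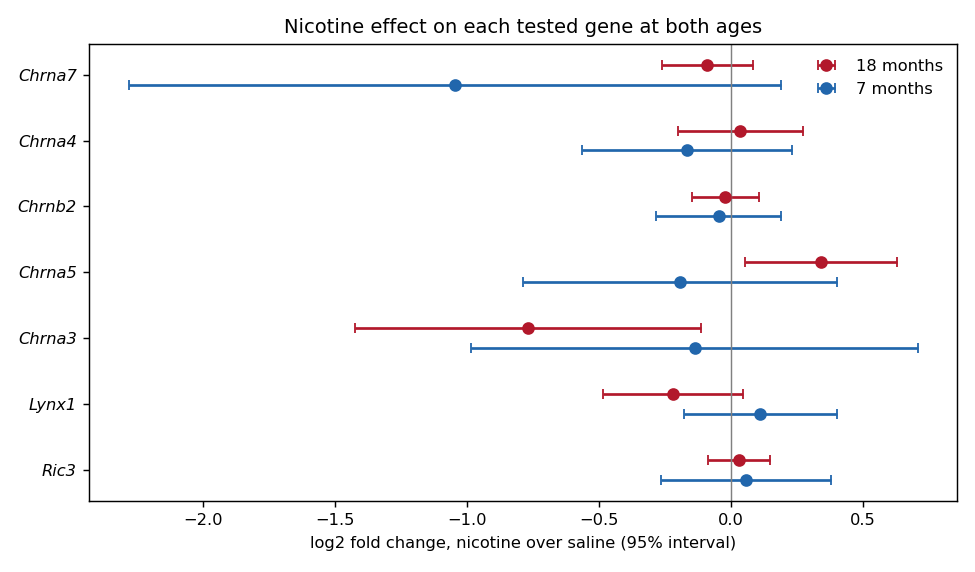
Log2 fold change of nicotine over saline for the 7 tested genes at 18 months (red) and 7 months (blue), each from 3 libraries per group, with the 95% interval as bars. At 18 months the intervals of Chrna5 (0.05 to 0.63) and Chrna3 (-1.42 to -0.11) leave out 0 before adjustment, and at 7 months Chrna7 has the widest interval, from -2.28 to 0.19.

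A single fit of all 12 libraries gave the nicotine effect averaged over the ages and its difference between them. None of the 7 genes passed for the average, against 0.0365% of all 19171 genes (7 genes), and none for the difference, against 0.00522% (1 gene). None had an unadjusted p under 0.05 by edgeR or DESeq2 in either, where 6.86% and 7.85% of all genes had one by edgeR. The averaged log2 fold change was -0.44 (SE 0.23) for Chrna3 and -0.55 (SE 0.28) for Chrna7, and without 7-month saline library 2 that of Chrna7 was -0.06. The effect at 18 months minus that at 7 months was 0.53 (SE 0.29) for Chrna5, -0.64 (SE 0.45) for Chrna3 and -0.33 (SE 0.19) for Lynx1. For Chrna7 it was 0.94 (SE 0.57), and -0.04 without 7-month saline library 2. A dependence of the nicotine effect on age was thus not detected in any of the 7 genes. The 95% intervals of the difference were as wide as -0.30 to 2.17 for Chrna7 and -1.62 to 0.35 for Chrna3.

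Between the ages, Chrna7 rose and Lynx1 fell in nicotine mice, 2 of 7 genes called, where 59.3% of all genes were called, 29.5% as higher and 29.8% as lower. Chrna7 alone was called, as higher, in saline mice, where 46.1% of all genes were called, 21.5% as higher. Given these shares, a call is common in the comparison of ages, and the 18-month and 7-month libraries also differed in make-up as described. The 2 comparisons of ages use different libraries.

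Chrna7 averaged 26.8 ± 1.28 CPM in 18-month nicotine mice and 5.67 ± 0.367 CPM in 7-month nicotine mice (SD, n = 3 each). The groups were far apart, with a log2 fold change of 2.24 (SE 0.42, adjusted p = 0.000736 by edgeR). In 68.9% of all genes the same groups did not overlap. It averaged 28.3 ± 2.55 CPM in 18-month saline mice and 11.5 ± 9.73 CPM in 7-month saline mice. The log2 fold change with saline was 1.30 (SE 0.40, adjusted p = 0.0193 by edgeR), and these groups did not overlap, as in 49.7% of all genes.

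The saline value of Chrna7 rested on how 7-month library 2 was treated. Without that library it was 2.29, with an adjusted p of 1.76e-08 by edgeR, close to the 2.24 with nicotine. With library 2 kept, the call was lost on leaving out 7-month saline library 1 (1.00, adjusted p = 0.0744 by edgeR), 7-month saline library 3 (0.98, adjusted p = 0.056 by edgeR) or 18-month saline library 1 (1.23, adjusted p = 0.0539 by edgeR). It was also lost without both 7-month libraries numbered 1, those of the other prefix (1.03, adjusted p = 0.0801 by edgeR) and without both numbered 3 (0.97, adjusted p = 0.0767 by edgeR). The nicotine value of Chrna7 came from the same fit and was 2.25 without 7-month saline library 2. Its SE was then 0.09 and its adjusted p 3.48e-09 by edgeR, against 0.42 and 0.000736 with that library kept.

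The level of Chrna7 in 7-month saline library 2 was placed on a log2 scale running from the mean of the other 7-month libraries, at 0, to that of the 18-month libraries, at 1. Chrna7 lay at 0.878. Over 2662 genes at least 2-fold higher at 18 months the median position of that library was 0.535, with quartiles at 0.155 and 0.753, and 352 of them (13.2%) lay at or above Chrna7. The library thus leaned towards the older mice in many genes besides Chrna7, as its share of long-transcript counts also did. The part of this in the level of Chrna7 was not tested.

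Genes that followed Chrna7 across the 12 libraries were sought by the root mean square difference of log2 CPM, each gene centred on its own mean, among 13929 genes. The nearest were Med12l, a Mediator complex subunit, at 0.0922, and Glg1, a Golgi membrane protein, at 0.133, where Chrna7 itself varied with a root mean square of 1.09. Med12l averaged 46.8 and 45.0 CPM at 18 months with nicotine and saline, against 9.28 CPM in 7-month nicotine mice and 38.6 CPM in 7-month saline library 2. Glg1 likewise averaged 169 and 167 CPM at 18 months with nicotine and saline, against 31.6 CPM in 7-month nicotine mice and 114 CPM in 7-month saline library 2. In all, 28 genes lay within 0.2 of Chrna7, a likeness that shares library, depth and library make-up among its points.

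**Figure D4:**
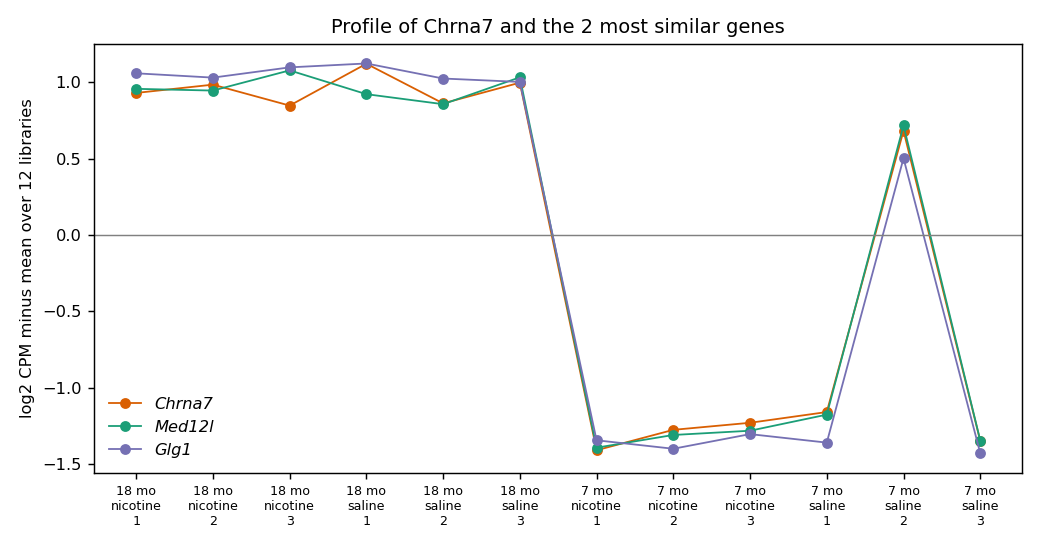
Log2 CPM of Chrna7, Med12l and Glg1 in the 12 libraries, each minus its own mean over them, with libraries in group order and numbered within each group. All 3 lines are high at 18 months, low in 5 libraries at 7 months, and high again in 7-month saline library 2.

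Lynx1 had 301 to 397 CPM in 18-month nicotine libraries, against 445 to 585 CPM in 7-month nicotine libraries. These groups did not overlap, as in 68.9% of all genes. The log2 fold change was -0.63 (SE 0.13, adjusted p = 0.00168 by edgeR), and Lynx1 stayed called when any 1 of the 12 libraries was left out. The saline libraries among these 12 are in neither group and enter this comparison only through the shared fit. With saline Lynx1 had 334 to 430 CPM at 18 months, against 463 to 505 CPM at 7 months. Again the groups did not overlap, as in 49.7% of all genes. There the log2 fold change was -0.30 (SE 0.13) and the adjusted p 0.0865 by edgeR, so it was not called. The nearest profiles to Lynx1 were those of Cplx1, a presynaptic complexin, at a root mean square difference of 0.0922, and of Pdk2, a pyruvate dehydrogenase kinase, at 0.101. They were not particular to Lynx1, since 1314 of 13929 genes lay within 0.2 of it. Lynx1 itself varied with a root mean square of only 0.288.

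Markers of interneurons, among the cells known to express Lynx1 in cortex, differed in both directions between the ages. The summed level of 13 such markers was lower at 18 months, at 774 to 831 CPM in 18-month nicotine, 814 to 859 in 18-month saline, 1132 to 1326 in 7-month nicotine and 1036 to 1144 in 7-month saline libraries, and all 13 exceeded 3 counts in every group. Of these 13, 1 was called higher and 8 lower at 18 months with nicotine, where 29.5% and 29.8% of all genes were. With saline 1 was called higher and 5 lower, where 21.5% and 24.6% of all genes were. The peptide genes Sst, Npy and Vip and the calcium buffer Pvalb were lower in both infusions, and Reln, which encodes reelin, was higher in both (log2 fold changes of 0.70 and 0.60 with nicotine and saline). Gad1 and Gad2, the enzymes that make GABA, were not called in either. Their part in the Lynx1 difference was not tested. Astrocyte markers also differed in both directions. Gfap and Aqp4 were called higher at 18 months in both infusions and Gjb6 and Aldh1l1 lower. The summed level of the 5 markers, most of it Gfap, was 2002 to 2474 CPM in 18-month nicotine, 2154 to 2559 in 18-month saline, 1337 to 1447 in 7-month nicotine and 1366 to 1569 in 7-month saline libraries.

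Chrnb2 was the steadiest of the 8 genes, with a highest library only 1.23 times its lowest. It averaged 64.1 ± 3.08 CPM in 18-month nicotine mice, 64.4 ± 2.90 in 18-month saline mice, 59.1 ± 3.51 in 7-month nicotine mice and 60.4 ± 2.81 in 7-month saline mice (SD, n = 3 each). Its log2 fold change with age was 0.12 (SE 0.08) with nicotine and 0.09 (SE 0.08) with saline, and was not called. Ric3 was nearly as steady, at 75.4 ± 2.89, 73.2 ± 2.23, 74.2 ± 4.91 and 70.5 ± 10.8 CPM in the groups in that order, with log2 fold changes of 0.02 and 0.05.

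The direction of Chrnb2 and Ric3 depended on whether transcript length and GC content were corrected for. Their transcripts have 6399 nt and 5281 nt, and the share of counts from transcripts over 5000 nt differed between the ages. With such offsets 5 of the 7 genes were called with nicotine and 3 with saline, where 47.6% and 38.7% of all genes were, with median log2 fold changes over all genes of -0.10 and -0.08. The log2 fold change at 18 over 7 months under the offsets was -0.36 (adjusted p = 0.00222 by edgeR) for Chrnb2 and -0.47 (adjusted p = 0.00016 by edgeR) for Ric3 with nicotine. With saline it was -0.26 (adjusted p = 0.0164 by edgeR) for Chrnb2 and -0.22 (adjusted p = 0.0187 by edgeR) for Ric3. Chrna3 was also called lower with nicotine under the offsets, at -0.87 (adjusted p = 0.0299 by edgeR). Chrna7, with a transcript of 2078 nt, stayed called and higher, at 2.53 with nicotine and 1.41 with saline. Part of Chrnb2 also lies under the neighbouring Adar on the opposite strand, by 7252 nt of the gene spans in GENCODE and 8 nt in RefSeq. The end of Ric3 lies under Tub, by 149 nt in GENCODE and 192 nt in RefSeq. With annotation and strand setting not given, the part of these stretches in the counts of Chrnb2 and Ric3 is not known.

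**Figure D5:**
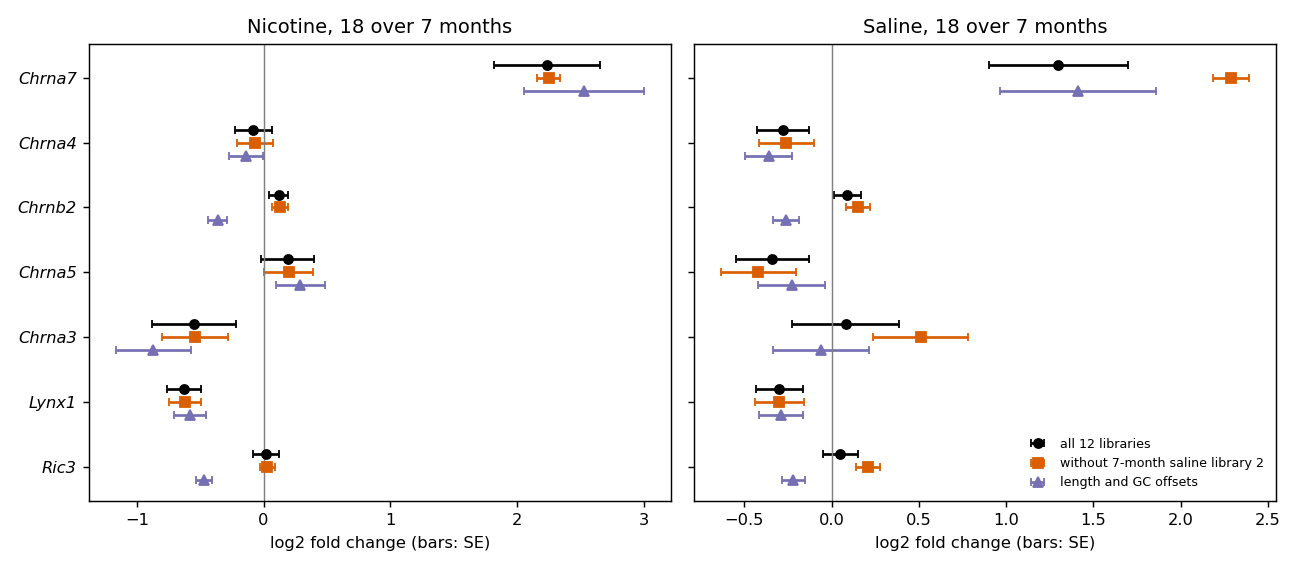
Log2 fold change of 18 over 7 months for the 7 tested genes in nicotine mice (left) and saline mice (right), with bars for the SE, from all 12 libraries (black circles), without 7-month saline library 2 (orange squares) and with offsets for transcript length and GC content (purple triangles). Chrna7 is above 0 in each setting, at 1.30 with saline and all libraries and 2.29 without library 2, while Chrnb2 and Ric3 change side with the offsets.

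The remaining subunits showed no called difference between the ages. Chrna4 had a log2 fold change of -0.08 (SE 0.15) with nicotine and -0.28 (SE 0.15) with saline, where the 18-month libraries were all below the 7-month ones (16.6 to 17.7 CPM, against 18.0 to 24.0 CPM). Chrna5 had 0.19 (SE 0.21) with nicotine and -0.34 (SE 0.21) with saline, again with all 18-month saline libraries lower, at 3.46 to 3.57 CPM, against 3.77 to 5.64 CPM. Chrna3 had -0.55 (SE 0.33) with nicotine, where all 18-month libraries were lower, and 0.08 (SE 0.31) with saline. Groups that did not overlap were common between the ages, in 49.7% of all genes with saline and 68.9% with nicotine. The adjusted p of these comparisons of Chrna4, Chrna5 and Chrna3 ran from 0.139 to 0.846 by edgeR.

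The other 10 nicotinic subunit genes made up the rest of the receptor family counted here. Chrna6, Chrna9, Chrna10, Chrnd and Chrng, which build receptors of midbrain, inner ear and muscle, had 5 counts or fewer in every library. Chrnb3 had 2 to 12 counts and Chrne, a subunit of adult muscle, 1 to 31. Chrna1 and Chrnb1, the other muscle subunits, had 24 to 64 and 34 to 68 counts, and Chrna2, known from hippocampal interneurons of the stratum oriens, had 23 to 47. None of the 3 tested within each age was called for nicotine. Chrnb1 was called higher at 18 months with nicotine, at 2.77 ± 0.366 CPM and 1.67 ± 0.304 CPM at 7 months (SD, n = 3 each; log2 fold change 0.72, SE 0.21, adjusted p = 0.00965 by edgeR). Of all genes 29.5% were called higher there. With saline Chrnb1 was not called and its groups overlapped (log2 fold change 0.38, SE 0.21, adjusted p = 0.151 by edgeR).

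In all, 12 further chaperones and Ly6 proteins of nicotinic receptors were counted, of which 10 were tested, and none was called for nicotine at either age. Between the ages 6 of 10 were lower at 18 months with nicotine and 7 of 10 with saline, where 29.8% and 24.6% of all genes were, and none was higher in either. Ly6h, a Ly6 protein that limits alpha7 at the cell surface, averaged 129 ± 17.3 CPM in 18-month nicotine mice and 314 ± 20.5 CPM in 7-month nicotine mice, a log2 fold change of -1.28 (SE 0.15, adjusted p = 6.59e-05 by edgeR). Tmem35, an older symbol of the alpha7 chaperone NACHO, averaged 33.4 ± 2.37 CPM in 18-month nicotine mice and 60.4 ± 6.82 CPM in 7-month nicotine mice, a log2 fold change of -0.86 (SE 0.12, adjusted p = 0.000157 by edgeR). Rer1, which in muscle cells retains unassembled subunits in the early secretory pathway, had a log2 fold change of -0.98 with nicotine and -0.63 with saline. These genes and Chrna7 thus differed in opposite directions between the same libraries, whose make-up also differed.

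At 7 months Ly6h had the smallest p of this list for nicotine, with 314 ± 20.5 CPM in nicotine mice and 219 ± 51.3 CPM in saline mice. All 3 nicotine libraries were higher, where 17.4% of all genes had groups apart in either direction, but the log2 fold change of 0.51 (SE 0.17) had an adjusted p of 0.656 by edgeR. At 18 months it was Ly6g6e, with 1.29 ± 0.186 CPM in nicotine mice and 0.569 ± 0.315 CPM in saline mice (log2 fold change 1.15, SE 0.37, adjusted p = 0.613 by edgeR). These levels rest on few counts, 24 to 32 per nicotine library and 6 to 20 per saline library. The lowest saline library, at 0.272 CPM, lay below the 0.459 CPM of the filter on low counts.

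Among the wider cholinergic genes, none of 5 muscarinic receptor genes was called for nicotine at either age, and none of the 3 (18 months) and 4 (7 months) tested genes of acetylcholine synthesis, transport and breakdown. At 18 months Chrm5 and Chrm3, coupled to Gq proteins, were called higher with nicotine and Chrm5 with saline, by 1.55 (SE 0.46), 0.29 (SE 0.09) and 1.29 (SE 0.46) on the log2 scale. Ache, which breaks acetylcholine down, was called lower at 18 months with nicotine, by a log2 fold change of -0.39 (SE 0.13, adjusted p = 0.0235 by edgeR). With saline Ache was not called and its groups overlapped (-0.15, SE 0.13, adjusted p = 0.366 by edgeR). Between the ages 29.5% of all genes were called higher and 29.8% lower with nicotine, and 21.5% higher with saline. Chat, the enzyme that makes acetylcholine in cholinergic neurons, had 0 to 7 counts per library.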

How the data were processed

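The members and gene lists were chosen with earlier results of these data known. Gene counts deposited by the authors are raw, in 1 table for each age, whose 44788 and 44786 genes share 44760 names. TopHat and GRCm38 are the tool and build named, per the submitters' processing notes. The version, counting tool, annotation and strand setting are not given in the sources used here. The labels' protocols name a kit for small RNA, although mRNA genes were counted.

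The main test was that of edgeR 4.0.16 under R 4.3.3 (TMM, filterByExpr with a minimum count of 10, quasi-likelihood F-test, Benjamini-Hochberg adjustment over all genes tested, threshold 0.05). Nicotine was compared within each age from 6 libraries. The average, the difference and the ages came from 4 group means of 12 libraries. The SE is the absolute log2 fold change over the square root of F, so the SE and the 95% interval restate the unadjusted test. A gene counts as measurable at an age where it passed filterByExpr. Transcript lengths (longest coding transcript, GENCODE M21) were found for 32203 of 44814 names in either table.

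Named genes were the 8 members in every comparison, the 2 genes nearest each tested member in profile (mean log2 CPM of at least 1), and up to 4 genes of a list with the smallest p among those called, or 2 where none was. Other subunits were given by their counts. Alternatives were RLE size factors, no filter, DESeq2 1.42.0, length and GC offsets (splines with 4 degrees of freedom), the replicate number as a block, all 12 libraries in one fit, and libraries left out. The procedure was tested on simulated data. Depth and Poisson intervals cover counting error only. Python 3.11.15 with pandas 2.3.3 and matplotlib 3.10.9 served for tables and plots.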

Additional observations from a re-analysis of the deposited data

How the results depend on the processing

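Of 831 log2 fold changes of the 7 tested genes under alternatives, 755 kept their direction and their side of the threshold. In all 67 changed sign, 5 lost a call and 12 gained one, and 8 of the 12 gains came with a change of sign. The 32 group means moved by less than 1 SD on total counts. No gene of the 7 was called for nicotine at either age, for the average or for the difference under any alternative run. DESeq2 called 57, 81, 80 and 37 genes in all for nicotine at 18 months, at 7 months, averaged and as a difference, against 8, 2, 7 and 1 by edgeR. With no filter on low counts edgeR called 35, 6, 15 and 1. Same-numbered libraries had correlations of -0.0976 to 0.196 in their departures from group means, so the numbers were not used as pairs. With replicate number as a block alone, the genes of the 7 called were 0 in each nicotine comparison, 2 between the ages with nicotine and 1 with saline, as without it. The cause of the changes below was not tested, beyond fewer libraries or genes in a fit.

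With length and GC offsets, with and without the block, 5 of the 7 were called between the ages with nicotine and 3 with saline, against 2 and 1 (of all genes, 47.6% and 38.7%, or 45.8% and 36.4% with the block, against 59.3% and 46.1%). Signs that turned there are given without and then with the block. For nicotine at 7 months they were Chrna3 (0.03, 0.07) and Chrnb2 (0.08, 0.08), and for the average and the difference Chrnb2 (0.03, 0.04 and -0.09, -0.10). Between the ages they were Chrnb2 (-0.36, -0.36) and Ric3 (-0.47, -0.47) with nicotine, and Chrna3 (-0.06, -0.03), Chrnb2 (-0.26, -0.26) and Ric3 (-0.22, -0.22) with saline. With no filter Ric3 was -0.02 between the ages with nicotine.

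Without both first 7-month libraries, none of the 7 (0) was called between the ages with saline, and Chrna3 was -0.06 there. The average was -0.05 for Chrna5 and 0.01 for Lynx1, the difference -0.01 for Chrnb2, and Chrna4 between the ages with nicotine 0.02. Without both numbered 3, an alternative chosen after seeing the data, 0 were called with saline, where Chrna3 was -0.09 and Ric3 0.00. Ric3 with nicotine was then -0.01 and Chrna5 for nicotine at 7 months 0.18. Without 7-month saline library 2 and nicotine library 1, 2 were called with saline. For nicotine at 7 months Chrna3 was then 0.28, Chrna7 0.00 and Chrnb2 0.05. The average was -0.06 for Chrna5, 0.02 for Chrnb2 and 0.00 for Lynx1, the difference -0.09 for Chrna7 and -0.08 for Chrnb2, and Chrna4 between the ages with nicotine 0.02.

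With 1 library left out at a time, the number called between the ages with saline ran from 0 to 2. Log2 fold changes whose sign turned ran, for nicotine at 18 months, from -0.08 to 0.09 for Chrna4 and from -0.06 to 0.02 for Chrnb2. For nicotine at 7 months they ran from -0.31 to 0.28 for Chrna3, -0.39 to 0.00 for Chrna5, -0.09 to 0.00 for Chrnb2 and -0.02 to 0.21 for Ric3. For the average they ran from -0.11 to 0.01 for Chrna4, -0.01 to 0.19 for Chrna5, -0.04 to 0.00 for Chrnb2 and -0.10 to 0.01 for Lynx1. For the difference they ran from -0.04 to 1.24 for Chrna7, -0.03 to 0.06 for Chrnb2 and -0.18 to 0.04 for Ric3. Between the ages they ran from -0.22 to 0.01 for Chrna4 and from 0.00 to 0.08 for Ric3 with nicotine. With saline they ran from -0.09 to 0.51 for Chrna3 and from -0.02 to 0.21 for Ric3, which was called higher at 18 months without 7-month saline library 2.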
